A study of Mus musculus with 4 samples.

Results

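The genes described here encode the NF-kappaB transcription factor subunits Rela, Relb, Nfkb1 and Nfkb2. They also encode the regulators Nfkbia, Nfkbie, Nfkbiz, Bcl3, Tnfaip3 and Birc3, which NF-kappaB itself can induce. Their expression was compared in mouse 3T3-F442A fat cells expressing a short hairpin RNA directed at the cation channel gene Trpv4 and in cells expressing one directed at GFP. Members were the probe sets, groups of short oligonucleotides that read the transcripts of 1 gene, whose platform annotation names exactly 1 of these 10 genes. There were 15 such probe sets, of 22626 on the array, for 9 of the 10 genes. The annotation used has no probe set that names Nfkb1 alone, so Nfkb1 is not analysed here.

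The series holds 4 Affymetrix arrays, 2 labelled shTRPV4 and 2 labelled shGFP. Per the labels, preadipocytes of the 3T3-F442A line were infected with a retrovirus expressing one of the hairpins and selected in 2 ug/ml puromycin for 2 days, so both groups carry a hairpin and went through selection. Confluent cells of both groups were turned into fat cells by 8 days in 850 nM insulin. Rosiglitazone, which activates PPAR gamma, was present on the first 2 of these days. The labels do not say whether the 2 arrays of a group came from separate infections or cultures, so the p-values reflect array-to-array spread that could be purely technical. Only 1 hairpin against Trpv4 is named, and the single Trpv4 probe set read 80.1 and 79.5 on the arrays labelled shTRPV4, against 43.7 and 93.8 on the arrays labelled shGFP (log2 difference 0.32, limma adjusted p = 0.55). The groups overlapped on that probe set, which therefore gives no check of the knockdown, and groups are called by their labels. All 10 adipocyte markers measured lay above the median intensity of 138.8, and Adipoq, which encodes the fat cell hormone adiponectin, read 13294 and 14169 on the arrays labelled shTRPV4, against 11784 and 11816 on the arrays labelled shGFP.

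NF-kappaB is a family of dimeric transcription factors that is held in the cytoplasm of resting cells by inhibitor proteins of the IkappaB family. Receptors for tumour necrosis factor, interleukin-1 and microbial products activate the IkappaB kinases, the inhibitor is degraded, and the dimer enters the nucleus. Among the genes it then switches on are those of its own inhibitors and of some of its subunits, which is why their transcripts are widely read as a sign of pathway activity. In fat cells the pathway is known for driving cytokine, chemokine and acute phase genes.

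The DNA just before the start of 4 of these genes is shown because it holds matches to the 10-base kappaB consensus, the sequence that NF-kappaB dimers bind. The sequences are the 250 bases before the annotated start, from RefSeq on GRCm38.p6, 5′ to 3′ on the gene's own strand, with every base of a match on either strand in capitals.
Nfkbia, chr12:55492648-55492897, minus strand: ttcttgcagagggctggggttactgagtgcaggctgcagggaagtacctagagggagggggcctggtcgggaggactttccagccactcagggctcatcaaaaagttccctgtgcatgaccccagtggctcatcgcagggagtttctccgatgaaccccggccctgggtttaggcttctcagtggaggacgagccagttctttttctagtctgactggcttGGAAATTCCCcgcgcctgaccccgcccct
Nfkbie, chr17:45555450-45555699, plus strand: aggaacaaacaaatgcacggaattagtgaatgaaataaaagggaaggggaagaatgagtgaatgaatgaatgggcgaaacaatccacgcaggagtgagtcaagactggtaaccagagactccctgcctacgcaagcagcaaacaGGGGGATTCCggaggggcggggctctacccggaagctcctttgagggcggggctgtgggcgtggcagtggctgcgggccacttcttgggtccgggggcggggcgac
Nfkb2, chr19:46304487-46304736, plus strand: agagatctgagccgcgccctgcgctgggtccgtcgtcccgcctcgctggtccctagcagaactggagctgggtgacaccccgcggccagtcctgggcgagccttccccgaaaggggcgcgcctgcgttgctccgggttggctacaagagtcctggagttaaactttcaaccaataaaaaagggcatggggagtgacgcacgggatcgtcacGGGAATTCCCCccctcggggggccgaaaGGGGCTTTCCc
Tnfaip3, chr10:19015411-19015660, minus strand: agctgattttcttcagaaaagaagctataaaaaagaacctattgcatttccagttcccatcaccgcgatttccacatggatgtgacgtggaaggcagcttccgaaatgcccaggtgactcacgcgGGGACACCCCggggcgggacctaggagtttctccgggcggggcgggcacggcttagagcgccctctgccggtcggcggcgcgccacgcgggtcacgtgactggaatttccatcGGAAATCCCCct

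Transcripts of the regulators Nfkbia, Nfkbie, Nfkbiz, Bcl3 and Birc3 and of the subunit Relb were lower in the arrays labelled shTRPV4, by 1.70-fold to 2.64-fold. Of the 15 probe sets, 10 fell and 0 rose at an adjusted p under 0.05 (limma over all 22626 probe sets). On the same arrays 5.36% of all probe sets fell and 4.54% rose. The 5 that did not pass were those of Rela, Nfkb2 and Tnfaip3 and the dimmer probe set of Birc3. The median log2 difference over the 15 was −0.82, beside 0.02 over all probe sets. Differences are shTRPV4 minus shGFP of quantile normalized log2(intensity + 16). The added 16, called the offset here, makes changes of dim probe sets look smaller than they are. Intensities are the deposited ones.

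On the deposited intensities, both arrays labelled shTRPV4 lay below both arrays labelled shGFP for 12 of the 15 probe sets, an arrangement found for 30.3% of all probe sets. They lay above for 0 of the 15, against 26.2% of all probe sets, and overlapped for 3. For the 10 probe sets that fell, the lower array labelled shGFP was 1.59 to 2.70 times as bright as the brighter array labelled shTRPV4. Within a group the 2 arrays differed by at most 1.24-fold in shTRPV4 and 1.26-fold in shGFP on these 10. Replicate 2 was the brighter array for 11 of the 15 probe sets in shTRPV4 and for 12 in shGFP, and its array median was also the higher one in each group (132.8 against 129.4 in shTRPV4, and 144.0 against 138.6 in shGFP).

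**Figure D1:**
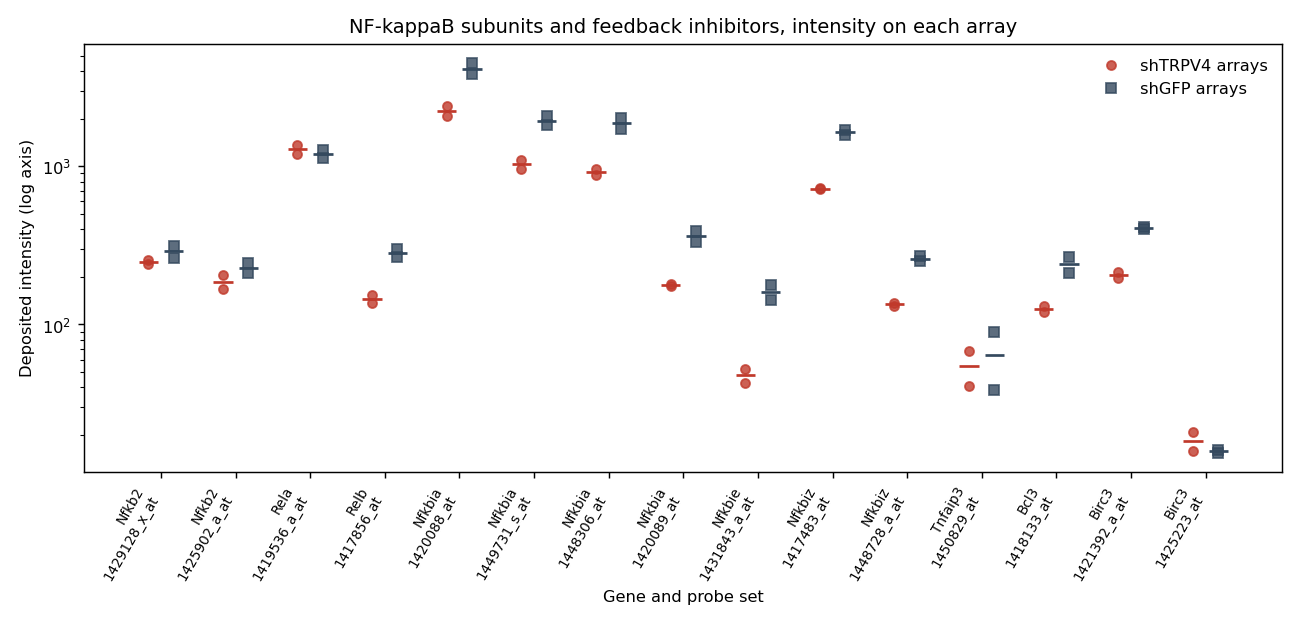
Deposited intensity (log axis) of each of the 15 probe sets on each array, with arrays labelled shTRPV4 as circles left of arrays labelled shGFP as squares, and the group mean as a short line. The groups are apart for Relb, Nfkbia, Nfkbie, Nfkbiz, Bcl3 and 1 probe set of Birc3, narrowly apart for Nfkb2, and they overlap for Rela, Tnfaip3 and the dimmer Birc3 probe set.

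Among the subunits, Relb fell while the probe sets of Rela and Nfkb2 did not pass. Rela encodes the main activating subunit of the canonical pathway. Its probe set (1419536_a_at) read 1187 and 1370.4 on the arrays labelled shTRPV4 and 1128 and 1267 on the arrays labelled shGFP. The groups overlapped, and the log2 difference was 0.12 (95% interval −0.14 to 0.38, SE 0.09, limma adjusted p = 0.459).

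Nfkb2 encodes the precursor that is processed to a subunit of the non-canonical pathway. Its probe set 1425902_a_at read 168 and 206 on the arrays labelled shTRPV4 and 210.4 and 244 on the arrays labelled shGFP, and 1429128_x_at read 239.9 and 256 on the arrays labelled shTRPV4 and 264 and 315 on the arrays labelled shGFP. Both were lower without overlap, but by margins of 1.02-fold and 1.03-fold between the nearest arrays. On these deposited intensities the array medians were also lower in shTRPV4 (129.4 and 132.8) than in shGFP (138.6 and 144.0). The part of array scaling in these margins was not tested. The log2 differences were −0.20 (95% interval −0.51 to 0.11, limma adjusted p = 0.315) and −0.14 (−0.39 to 0.11, adjusted p = 0.379). A probe set whose ID ends in _x_at can also read other transcripts.

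Relb, the partner of the processed Nfkb2 subunit, read 138 and 153 on the arrays labelled shTRPV4 (1417856_at), against 268 and 299.7 on the arrays labelled shGFP. Both arrays labelled shTRPV4 were below, by 1.75-fold between the nearest arrays. The log2 difference was −0.82 (SE 0.07, limma adjusted p = 0.0209). The interval of Relb, from −1.04 to −0.61, did not overlap those of Rela and Nfkb2, although the difference between genes was not itself tested.

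Nfkbia, the classical cytoplasmic inhibitor that binds Rela-containing dimers and is resynthesised after each activation, fell on all 4 of its probe sets. The brightest, 1420088_at, read 2077 and 2389 on the arrays labelled shTRPV4, against 3803 and 4465 on the arrays labelled shGFP. The probe set 1449731_s_at read 965 and 1090.2 on the arrays labelled shTRPV4, against 1812 and 2065 on the arrays labelled shGFP. The groups were separate on each. The probe set 1448306_at, the one annotated with a RefSeq transcript, read 878 and 959.8 on the arrays labelled shTRPV4, against 1719 and 2010.5 on the arrays labelled shGFP. The dimmest, 1420089_at, read 176 and 181 on the arrays labelled shTRPV4, against 332 and 388 on the arrays labelled shGFP. The groups were separate on these as well. The 4 log2 differences lay close together, at −0.87 (1420088_at), −0.88 (1449731_s_at), −0.97 (1448306_at) and −0.89 (1420089_at). Their SEs were 0.08 to 0.10 and their limma adjusted p-values 0.0209 to 0.0285.

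Nfkbie, a related cytoplasmic inhibitor, had the largest difference of the 15 probe sets at the offset of 16 used here. It read 42.6 and 52.6 on the arrays labelled shTRPV4 (1431843_a_at), against 142 and 179 on the arrays labelled shGFP. The nearest arrays of the groups were 2.70-fold apart. The log2 difference was −1.40 (SE 0.14, 95% interval −1.80 to −0.999, limma adjusted p = 0.0239), and 0.597% of all probe sets had a difference at or below it. The size depends on the offset, with −1.65 at an offset of 1 and −0.96 at 64, where the brighter Nfkbiz probe set had the larger difference (−1.08).

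The nuclear members of the IkappaB family fell as well. Nfkbiz encodes an inducible nuclear protein that is needed for a subset of secondary response genes such as Il6 and Lcn2. Its brighter probe set, 1417483_at, read 725 and 717 on the arrays labelled shTRPV4, against 1587 and 1687 on the arrays labelled shGFP (log2 difference −1.13, SE 0.07, limma adjusted p = 0.0155). The other, 1448728_a_at, read 131 and 137 on the arrays labelled shTRPV4, against 250.1 and 269.9 on the arrays labelled shGFP (−0.80, SE 0.06, limma adjusted p = 0.0182). Both fell with no overlap, and their 95% intervals, from −1.32 to −0.94 and from −0.98 to −0.63, overlap slightly.

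Bcl3 encodes a nuclear IkappaB protein that binds dimers of the Nfkb1 and Nfkb2 products. It read 119 and 131 on the arrays labelled shTRPV4 (1418133_at), against 213 and 266 on the arrays labelled shGFP. The groups were apart by 1.62-fold between the nearest arrays. Its log2 difference of −0.76 was the smallest of the 10 that fell (SE 0.11, 95% interval −1.07 to −0.46, limma adjusted p = 0.0382).

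Of the ubiquitin regulators, Birc3 fell on 1 of 2 probe sets and Tnfaip3 could not be resolved. Birc3, an inhibitor of apoptosis and ubiquitin ligase at tumour necrosis factor receptors, read 215 and 197 on the arrays labelled shTRPV4 (1421392_a_at), against 413 and 403 on the arrays labelled shGFP (log2 difference −0.88, SE 0.10, limma adjusted p = 0.0263). Its other probe set, 1425223_at, read 20.9 and 15.9 on the arrays labelled shTRPV4 and 16.2 and 15.5 on the arrays labelled shGFP, close to the offset of 16. That probe set was brighter than only 21.5% of all probe sets and differed by 0.12 (95% interval −0.15 to 0.38), so of the 2 probe sets of Birc3 the brighter fell and the dimmer did not pass. The paralog Birc2 (1418854_at), a ubiquitin ligase of the same receptor complexes, read 628 and 711 on the arrays labelled shTRPV4 and 584 and 667 on the arrays labelled shGFP, overlapping groups (0.13, limma adjusted p = 0.379).

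Tnfaip3 encodes the ubiquitin-editing enzyme that ends signalling from tumour necrosis factor and Toll-like receptors. Its single probe set (1450829_at) read 68.2 and 40.9 on the arrays labelled shTRPV4 and 90.2 and 38.7 on the arrays labelled shGFP. Replicate 1 was the brighter array in each group, and the groups overlapped fully. The log2 difference of −0.08 lay in a 95% interval of −1.24 to 1.09 (SE 0.41, limma adjusted p = 0.927). That interval holds the falls seen for Nfkbia and Nfkbiz as well as a rise. Leaving out shGFP replicate 1 turned the difference to 0.41, and leaving out shTRPV4 replicate 2 turned it to 0.21.

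**Figure D2:**
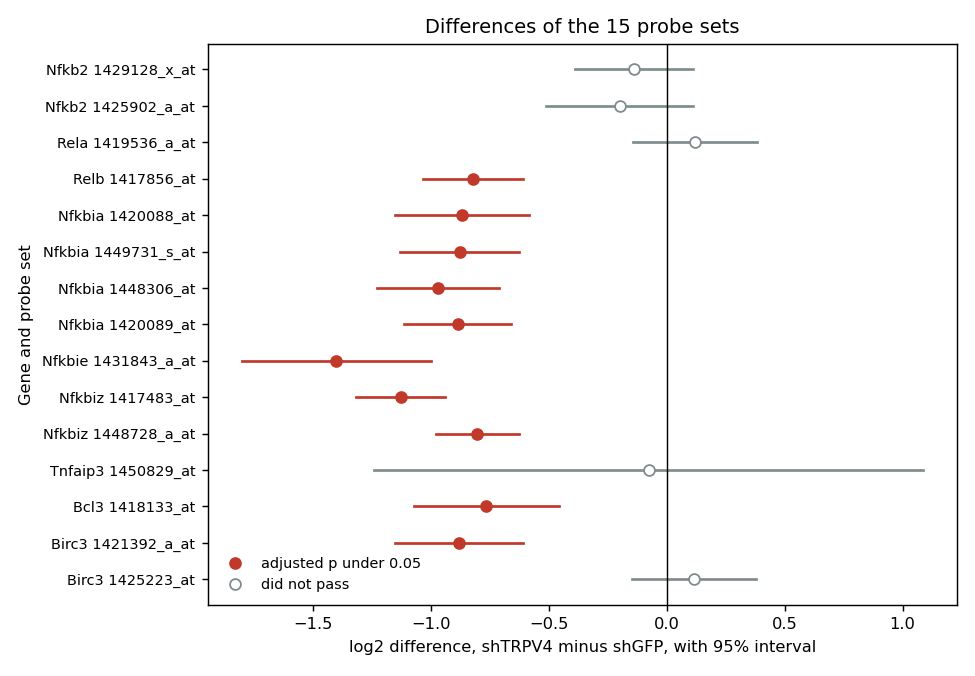
Log2 difference, shTRPV4 minus shGFP, of each of the 15 probe sets with its 95% interval from limma, filled where the adjusted p was under 0.05. The 10 filled points lie between −1.40 and −0.76, and the 5 open ones between −0.20 and 0.12.

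The calls rest on a fit to 2 arrays per group. In the 4 fits that drop 1 array no call was left, for these 15 or for any other probe set. The same 10 probe sets kept negative differences in them, from −1.53 to −0.65. The fit that blocks on replicate number called 0 of the 15 probe sets and 0 of all probe sets. In it the 10 had an unadjusted limma p under 0.05, as did 6858 of all 22626 probe sets. These fits reuse the same arrays and are not separate evidence. Adjusted p-values of the 10 were 0.127 to 0.212 with an array dropped and 0.0748 to 0.0769 with the block. With an offset of 1 in place of 16, 4 of the 10 passed, and over all 22626 probe sets 426 fell and 180 rose. The balance of all calls moves with scaling: 1213 probe sets fell and 1027 rose after quantile normalization, 1161 and 600 with the values as deposited, and 1141 and 1662 with median centring, and 10 of the 15 fell under each of the 3.

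Matches to the kappaB consensus were found before the start of 4 of the 7 genes with a sequence in the RefSeq table used. Over the whole table, 8.23% of 27025 genes had a match before at least 1 of their starts, and 7.25% of 32851 windows held one. Both strands were searched over 250 bases, and overlapping matches are described as a single stretch. Nfkbia had 1 match, from 29 to 20 bases before the start, and Nfkbie had 1, from 106 to 97 bases before it.

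Nfkb2 had matches before each of its 3 annotated starts, the first of them with overlapping matches from 39 to 29 bases before the start and another from 11 to 2. Tnfaip3 had 2 matches before the first of its 2 starts, beginning 125 and 12 bases before it, and none before the other. Bcl3, Birc3 and Rela had none in these windows. Of the 4 genes with a match, 2 had a probe set that fell, as did 2 of the 3 without one. The windows of the 7 genes held 43.6% to 72.0% G and C, beside a median of 52.4% over the table, and the part of base composition in the matches was not tested. Relb and Nfkbiz are named without a sequence.

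**Figure D3:**
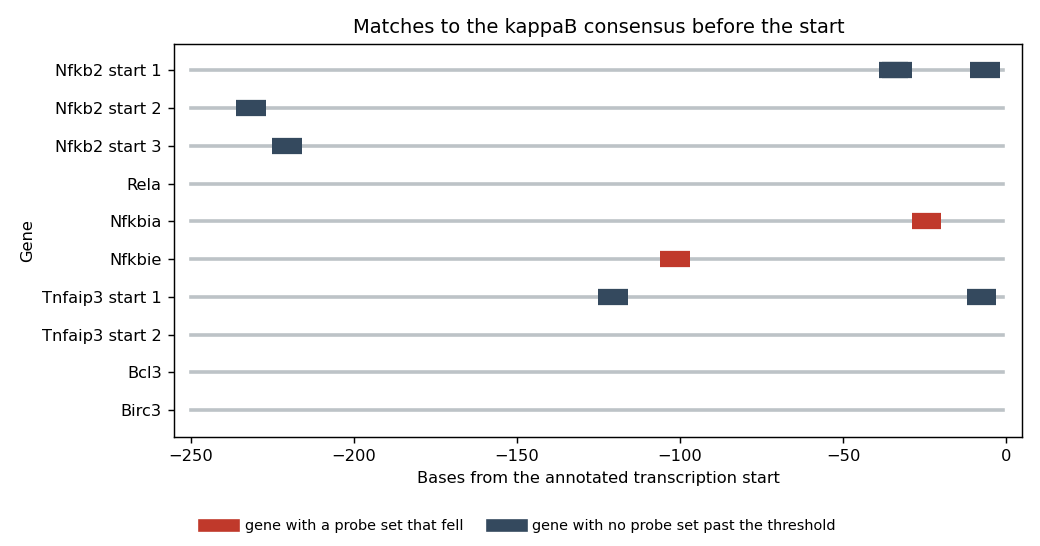
Position of matches to the kappaB consensus in the 250 bases before each annotated start of the 7 genes, as thick bars, red for genes with a probe set that fell and dark blue for genes with none past the threshold. Nfkb2 has matches before all 3 starts, Nfkbia and Nfkbie have 1 each, and Bcl3, Birc3 and Rela have none.

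The rest of the pathway was read with 1 probe set per gene, the one with the highest mean intensity, and in that setting 6.02% of 12393 genes fell and 5.36% rose. Of 9 further subunits and inhibitors measured, 3 fell and 0 rose, with a median of −0.02. Zc3h12a, an RNase that degrades cytokine transcripts, read 266 and 254 on the arrays labelled shTRPV4 and 505 and 541 on the arrays labelled shGFP (−0.91, limma adjusted p = 0.019). Tax1bp1, an adaptor of the Tnfaip3 enzyme, fell by 0.68 on the log2 scale on its brightest probe set and passed on 2 of 3. Otud7b, a deubiquitinase, fell by 0.58 on the log2 scale.

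Of 25 genes upstream of the inhibitors, 4 fell and 1 rose, with a median of −0.06. Among 8 receptors, 5 did not pass, with differences from −0.41 (Tnfrsf1b, limma adjusted p = 0.0793) to 0.71 (Tlr4, limma adjusted p = 0.0629). The 3 that fell were the lipoprotein receptor Tlr2 (−2.99), the double-stranded RNA receptor Tlr3 (−0.84, on 1 of 2 probe sets) and the interleukin-1 receptor Il1r1 (−0.46, a call lost with median centring at an adjusted p of 0.0501). Among 7 measured kinase genes, counting the regulatory IkappaB kinase subunit, 1 fell. It was Irak1, which acts below Tlr2 and Il1r1, and it fell on all 4 of its probe sets (−0.91 on the brightest, limma adjusted p = 0.028). Among 10 adaptors, ubiquitin ligases and binding proteins 0 fell and 1 rose, the kinase-binding protein gene Tab1 (0.43, adjusted p = 0.046). The Tab1 call was lost without normalization (adjusted p = 0.0692), with an intensity trend (0.0774) and with an offset of 1 (0.0695). With that offset, Tlr2 was the 1 upstream gene and Zc3h12a the 1 further inhibitor that still passed.

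Of 30 genes known as NF-kappaB targets, 16 fell and 0 rose, with a median of −1.11. The list was written with earlier results of these data known and is not independent evidence of a direction. By kind of target, 8 of 13 chemokines and cytokines and 6 of 7 enzymes and secreted defence proteins fell, as did 1 of 3 adhesion molecules and 1 of 7 survival, stress and transcription genes. These shares were not tested against each other. The 6 with the largest differences were Saa3, Lcn2, Cxcl5, Cxcl10, Cxcl1 and Il6, from −5.26 to −2.62. All were larger in size than any of the 15 probe sets of the subunits and regulators. Of the 6, Cxcl10 read 3.92 and 11.97 on the arrays labelled shTRPV4, below the offset of 16. Its difference was −4.47 at an offset of 1, where its call was lost (limma adjusted p = 0.0631). At an offset of 64 it was −1.75, beside −1.82 for Il6.

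**Figure D4:**
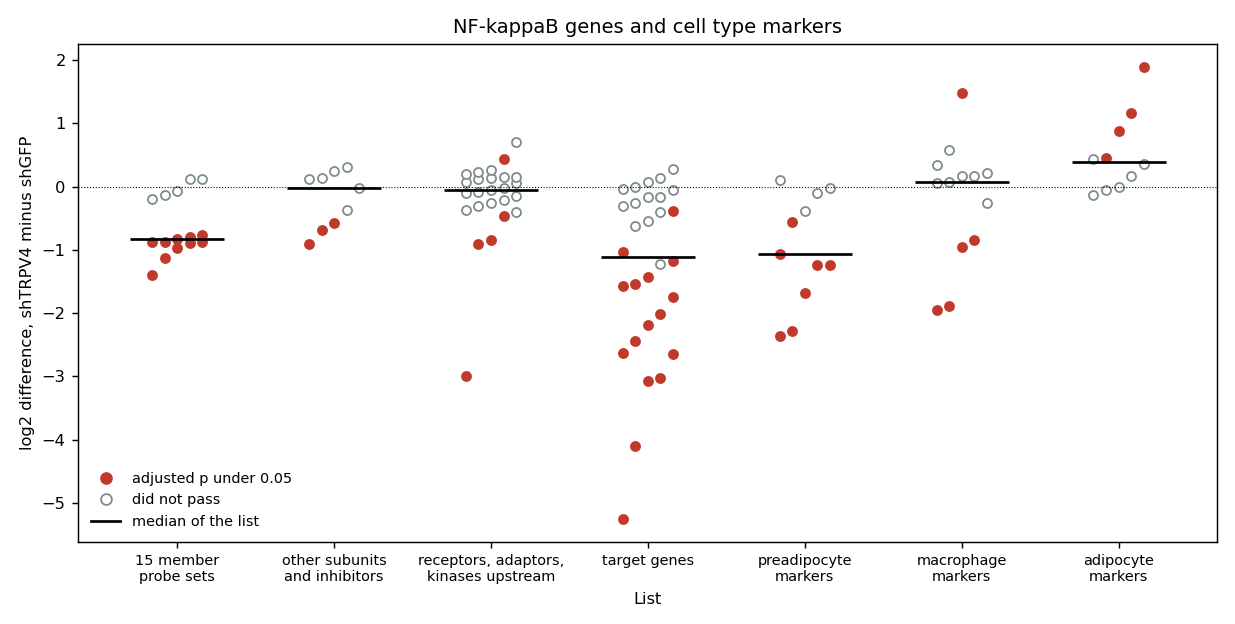
Log2 difference, shTRPV4 minus shGFP, of the 15 probe sets and of the genes of each list, filled where the adjusted p was under 0.05, with the list's median as a line. The median is −0.82 for the 15 probe sets, −0.02 and −0.06 for the other inhibitors and upstream genes, −1.11 for the targets, −1.07, 0.07 and 0.40 for the preadipocyte, macrophage and adipocyte markers.

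Markers of other cell states moved on the same arrays. Among markers of preadipocytes or fibroblasts, 7 of 11 fell and 0 rose. Their summed intensity was 58711 and 59627 on the arrays labelled shTRPV4, against 70890.2 and 73817 on the arrays labelled shGFP. Among macrophage markers, 4 of 13 fell and 1 rose, with sums of 811 and 788 on the arrays labelled shTRPV4, against 1397 and 1560.3 on the arrays labelled shGFP. The markers that fell were the lysozyme genes Lyz1 (−1.95, on 2 of 3 probe sets) and Lyz2 (−1.89), Cd14 (−0.96) and Csf1r (−0.85, on 1 of 3). Cd68 rose (1.49). The Lyz1 probe set, 1436996_x_at, can also read other transcripts, as its ID ends in _x_at. With probe sets averaged per gene, 3 markers fell and 1 rose. With 1 probe set per gene, differences were negative for 5 of 13, with a median of 0.07. Named, as these are, after its values were seen, the macrophage surface marker Adgre1 read 94.0 and 83.7 on the arrays labelled shTRPV4, against 73.0 and 70.5 on the arrays labelled shGFP (0.33, limma adjusted p = 0.107). None of the 13 was at the floor value of 1 on all arrays, but the pan-leukocyte marker Ptprc read 11.3 and 10.7 on the arrays labelled shTRPV4 and 11.1 and 5.43 on the arrays labelled shGFP, below the offset. Of 10 adipocyte markers 4 rose and 0 fell. Those that rose were Retn (1.90), Slc2a4 (1.16), Cebpa (0.88) and Pparg (0.45), and the 6 that did not pass ranged from −0.14 to 0.43. The sums over all 10 were 64951 and 67912 on the arrays labelled shTRPV4, against 56752 and 56153 on the arrays labelled shGFP. All sums are of deposited intensities, in which bright genes weigh most. The cultures were grown from a preadipocyte line, so the macrophage markers are read here as transcripts and not as a count of macrophages. For preadipocytes and fat cells, a change in the share of cells and a change in RNA per cell cannot be told apart. The part of such changes in the falls of Nfkbia and the other inhibitors was not tested.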

How the data were processed

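Total RNA was measured on 4 Affymetrix arrays with biotin-labelled cRNA, per the labels. The authors deposited 1 linear intensity per probe set and array. Their summarisation, background correction and scaling are not given in the sources used. The array medians were 129.4 to 144.0, between 1.85% and 2.08% of values were exactly 1, and no detection calls were used, so the level of background is unknown and the number of arrays limits the precision. Intensities were taken as log2(intensity + 16), quantile normalized because the array medians spanned 0.138 on that scale, and compared by lmFit and eBayes without a trend (limma 3.58.1, R 4.3.3) over 22626 probe sets, with 2 residual and 1.80 prior degrees of freedom. P-values were Benjamini-Hochberg adjusted over all probe sets, with a threshold of 0.05. The fit was checked for the size and direction of planted differences in simulated data, which does not test the calls made here. All probe sets of the members are reported. Of the pathway lists, genes past the threshold are named, at most the 6 with the largest differences, plus Birc2 and Trpv4. Tlr4 and Tnfrsf1b were named after their values were seen. Of the probe sets, 20380 had 1 gene symbol, 691 several and 1555 none here. IDs of 20351 matched RefSeq, with 0 symbols changed. List genes without a probe set of their own are not analysed here. The members and lists were chosen with earlier results of these data known. Alternatives were other offsets, scalings, filters on dim probe sets, an intensity trend, a replicate block, probe sets averaged per gene, and each array left out.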

Additional observations from a re-analysis of the deposited data

How the results depend on the processing

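All 10 probe sets that fell kept a negative difference under every alternative run, 119 values in all, since Nfkbie was dropped by the stricter filter on dim probe sets. The count of 10 was unchanged with an offset of 64, the values as deposited, median centring, an intensity trend and the filter under the 25th percentile, and was 9 under the 50th. With an offset of 1 the count was 4, with adjusted p-values of 0.0523 to 0.0704 for the 6 lost, while 1 further subunit or inhibitor and 1 upstream gene passed. The upstream count was 9 of 21 genes, 6 lower and 3 higher, with probe sets under the 50th percentile left out. In that setting 2251 of all 11313 probe sets kept fell and 2637 rose. Over all probe sets, the alternatives with calls gave 426 to 2251 lower and 180 to 2637 higher. Leaving out any 1 array left no call among the 15 probe sets, the pathway lists or all probe sets. These fits have 1 residual degree of freedom, and a lone array of a group is assumed to vary like the other group. With the replicate number as a block the counts were also 0, with 6858 probe sets at an unadjusted p under 0.05. Deviations of same-numbered arrays from their group means correlated at 0.119 over probe sets, and with 2 numbers the arrays share only a number. Trpv4 ranged from −0.093 (without shGFP replicate 1) to 0.73 with 1 array left out, and Tnfaip3 from −0.55 (without shGFP replicate 2) to 0.41 (without shGFP replicate 1), with 0.21 without shTRPV4 replicate 2. The cause of these changes was not tested. Readings close to the offset for 1 probe set of Birc3, and the spread between arrays for Tnfaip3 (SE 0.41), limit what can be said of them.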
